A study of Micropterus salmoides with 68 samples.

Results

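The 70 genes described here carry names that begin with the stems of the pre-mRNA splicing families snrp, sf3a, sf3b, prpf, lsm followed by a digit, srsf, hnrnp or u2af, out of 18666 genes in the expression table. They are 10 snrp, 9 sf3a or sf3b, 12 prpf, 13 lsm, 12 srsf, 12 hnrnp and 2 u2af genes, and all 70 matched by symbol a protein-coding gene in RefSeq's annotation of the largemouth bass. Expression was measured by RNA sequencing of 68 libraries of total RNA depleted of ribosomal RNA, 34 from liver and 34 from spleen of largemouth bass (Micropterus salmoides) fingerlings, a farmed freshwater fish. The fish were driven for 4 h in boxes of 125 fish in 30 L of aerated water and then recovered, unfed, in tanks in a room at 28 °C. Each tissue has 4 libraries taken when transport ended and 4 from fish that had recovered for 1 day. It has 3 libraries of abnormal and 3 of normal fish at day 3, and 4 of each at day 4 and at day 5. The remaining 4 libraries come from fish netted from the pond before transport, and every comparison with fish before transport uses those same 4 livers or spleens. The labels do not say what made a fish abnormal, they give no age, and no untransported fish sampled on days 1 to 5 were analysed here, so that time without food and time in the tanks cannot be told apart from recovery.

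Splicing removes introns from newly made transcripts and joins the exons. The roles given below are those known from human and yeast orthologues. A ring of Sm proteins, encoded by snrpb, snrpd1, snrpd2, snrpd3l, snrpe, snrpf and snrpg, surrounds the small nuclear RNAs U1, U2, U4 and U5 and makes them into ribonucleoproteins, while a related ring of Lsm proteins sits on U6. U1 recognises the start of the intron, the U2AF dimer its end, and U2 with its SF3A and SF3B subunits the branch site, after which the Prpf proteins of the U4/U6.U5 tri-snRNP and the Prp19 complex build and activate the catalytic centre. SR proteins (srsf) and hnRNP proteins bind exons and introns and steer the choice of splice sites. The name rule also takes in a few genes with other work, among them lsm1, a subunit of the cytoplasmic Lsm ring of mRNA decay, lsm14aa, lsm14ab and lsm14b, which belong to P bodies, and lsm10 and lsm11 of the U7 particle that processes histone mRNA.

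Values are TPM (transcripts scaled to a fixed total per library), which are set per length of transcript and so allow genes to be compared within a library. Each value is thus a share of the measured RNA of its library. Differences are in log2(TPM + 1), with their standard error (SE), from a limma fit over all genes tested in the tissue. A gene counts as higher or lower where the Benjamini-Hochberg adjusted p, taken over all those genes, is under 0.05. The labels say that tissues were collected individually but do not tie each library to its own fish, so the p-values measure the spread between libraries. In whole tissue, fewer cells of a type and less RNA per cell cannot be told apart.

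Several libraries stood apart from their groups. Liver replicate 4 before transport had a median correlation of 0.856 with the others of its group, and liver replicate 3 of day 1 one of 0.896. The 4 spleens of day 1 correlated with each other at only 0.801 to 0.961. In the spleen the 10 most abundant genes took 42.9 ± 12.2% of TPM at day 1 (SD, n = 4), 33.2% to 39.9% as group means in abnormal fish and 8.50% to 11.4% in normal fish, against 17.4 ± 4.30% before transport (SD, n = 4), whereas group means in the liver lay between 25.6% and 35.5%. For each comparison the number of members higher and lower is therefore also given after the libraries were rescaled by median-of-ratios factors, which set the typical gene equal between libraries. Counts of cell markers are given as deposited unless stated otherwise. Before transport the labelled tissues differed in their defining markers: hepatocyte markers summed to 561 TPM in spleen and 169183 TPM in liver.

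Splicing genes were expressed in both tissues, at higher TPM in the spleen. The median of the 70 genes' mean levels was 41.7 TPM over the 34 spleens and 14.4 TPM over the 34 livers. The most abundant member in both tissues was hnrnpa1b, an hnRNP that packages nascent RNA and represses splice sites, with means of 372 TPM in spleen and 105 TPM in liver. Next in spleen came sf3b6 with 268 TPM and sf3b1 with 243 TPM. In liver the order was sf3b1 with 101 TPM and then sf3b6 with 91.9 TPM. Both encode subunits of the U2 particle that sit at the branch site. At the other end lay lsm11, with means of 1.25 TPM in spleen and 0.150 TPM in liver, and srsf10a, with 1.34 TPM in spleen and 0.782 TPM in liver. Lsm11 had at most 0.40 TPM in any liver and was not tested there, which leaves 69 members tested in liver and 70 in spleen.

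Before transport, 63 of 70 members were higher in spleen than in liver and none was lower, where 67.8% of all 18666 genes tested were higher and 11% lower (78.8% in either direction). The members' median difference was 1.74, that of all genes 1.12. After rescaling, 35 members were higher and 7 lower in spleen, where 34.4% of all genes were higher and 26.4% lower, and 14 of the 63 changed sign. Sm genes led this difference: snrpf had 56.31, 49.13, 43.56 and 61.39 TPM in the 4 spleens, against 4.05, 2.42, 4.36 and 1.27 TPM in the 4 livers. These ranges lie far apart, and the difference was 3.80 (adjusted p = 8.09e-11), or 2.48 after rescaling. Snrpd1, with 3.01, and snrpd3l, with 2.91, followed, together with lsm6, a subunit of the U6 ring, and hnrnph1, a splicing regulator that binds G-rich RNA, with 2.92 each. All 4 stayed positive after rescaling, at 1.53 to 1.63.

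**Figure D1:**
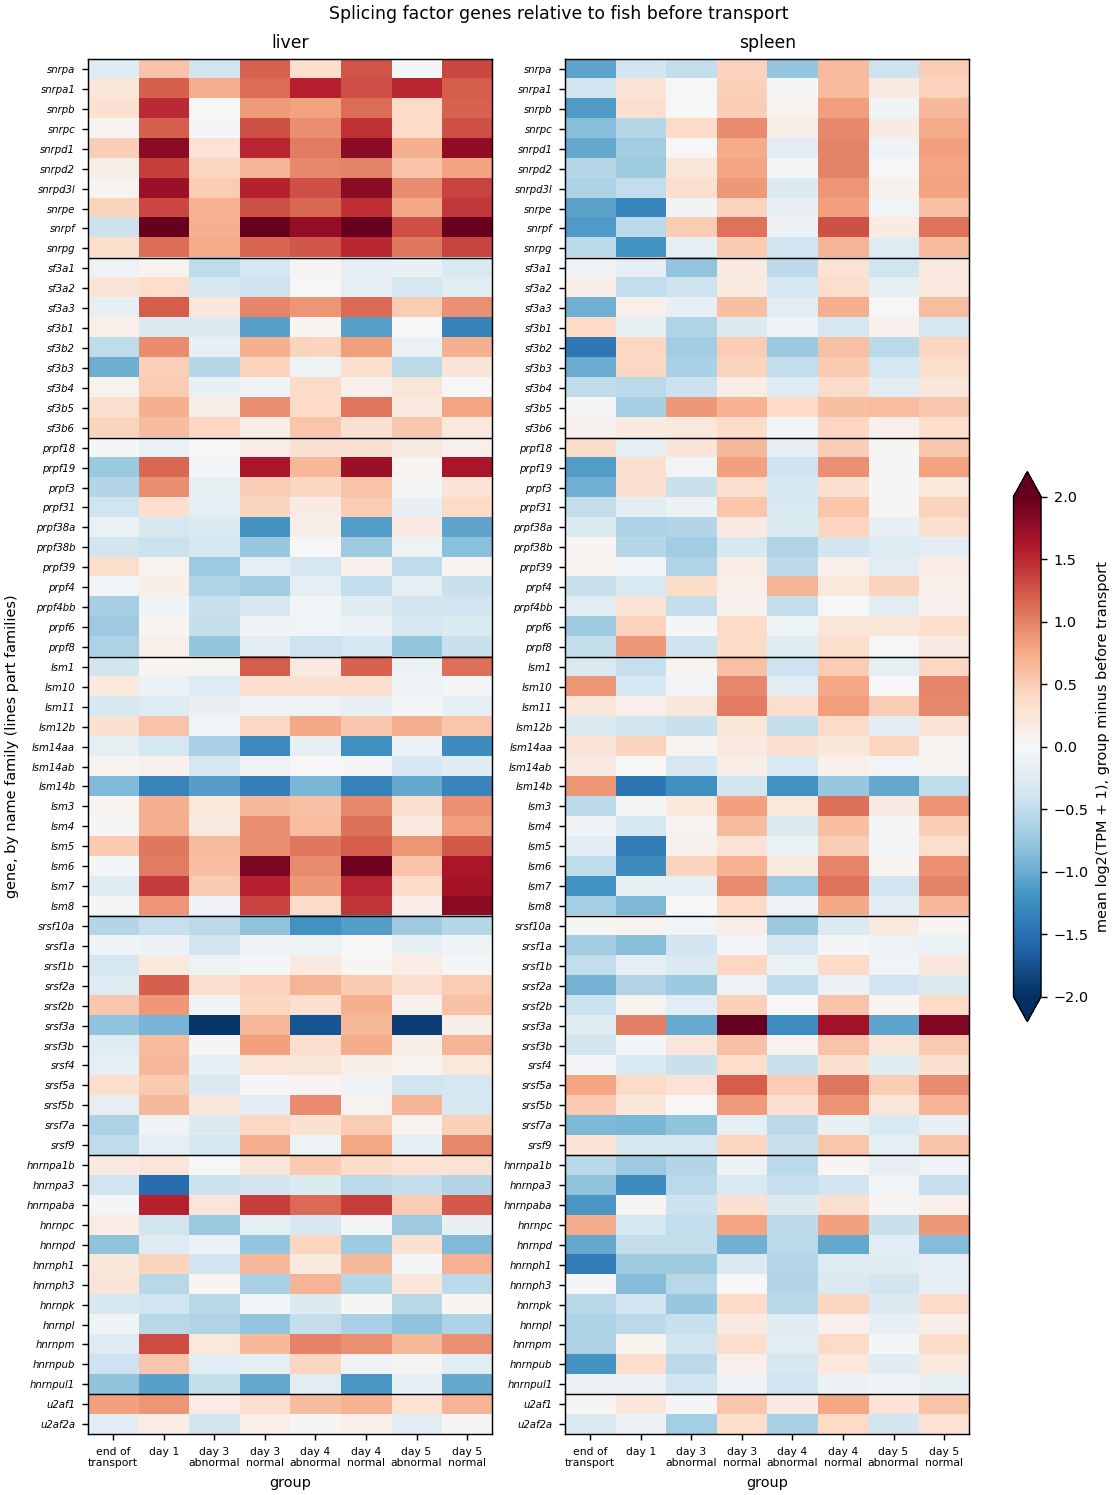
Log2 difference of 69 of the 70 splicing genes (rows, by name family) from fish before transport in the other 8 groups of each tissue (columns), as the difference of group means of log2(TPM + 1), with colours from -2 to 2. The snrp rows are high in liver at day 1 and in normal fish, and srsf3a is low in abnormal and high in normal spleens.

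At the end of transport few splicing genes had moved in the liver: 1 member was higher and 2 were lower than before transport, where 2.96% of all genes were higher and 9.27% lower (12.2% in either direction). The member that rose was u2af1, the U2AF subunit that reads the AG at the end of the intron. It had 33.24, 31.79, 32.8 and 26.57 TPM at the end of transport, against 19.38, 16.29, 23.7 and 11.28 TPM before. No library of the earlier group reached the later one, and the difference was 0.82 (SE 0.222, adjusted p = 0.0157). It was 0.64 with an adjusted p of 0.0676 without liver replicate 4 of the group before transport.

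The members that fell were hnrnpd and lsm14b. Hnrnpd, also known as AUF1, is an hnRNP that binds AU-rich mRNA and speeds its decay. It had 6.31, 3.73, 4.96 and 4.28 TPM at the end of transport, against 4.79, 6.75, 11.3 and 17.15 TPM before. The groups overlap, and the difference of -0.80 (SE 0.26, adjusted p = 0.0412) became -0.51 (adjusted p = 0.208) without replicate 4. Lsm14b, named after its values were seen because of its low level, had 1.58, 1.17, 1.57 and 0.93 TPM at the end of transport, against 2.53, 4.45, 2.03 and 4.43 TPM before, which did not overlap (difference -0.88). Without liver replicate 1 of the group before transport, or liver replicate 1 of the end of transport, 1 was higher and 7 lower, and without liver replicate 2 of the group before transport 1 was higher and 6 lower. The rescaled fit called 9 members higher and 3 lower, where 8.89% of all genes were higher and 8.89% lower.

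After 1 day of recovery the liver's splicing genes stood higher, with the Sm genes in front. Of the 69 members, 28 were higher and 4 lower than before transport, where 9.99% of all genes were higher and 17.3% lower (27.3% in either direction). The members' median difference was 0.48, that of all genes -0.16. After rescaling 40 were higher and 3 lower, against 17.7% and 18.3% of all genes, and all 28 that were higher stayed so. In 26 members every day-1 liver lay above every liver before transport, which held for 7.38% of all genes, and in 3 every day-1 liver lay below, which held for 9.66%.

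By family, 9 of 10 snrp genes rose, with a family median of 1.36, as did 6 of 12 lsm genes (median 0.65, with 1 lower), 4 of 9 sf3a and sf3b genes (0.51) and 4 of 12 srsf genes (0.36). The prpf family had 2 of 12 higher and a median of 0.09. The hnrnp family went both ways, with 2 of 12 higher, 3 lower and a median of -0.31. After rescaling 9 snrp, 7 lsm, 7 sf3a or sf3b, 7 srsf, 4 prpf and 5 hnrnp genes were higher, and 1 lsm and 2 hnrnp genes lower.

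Snrpf, an Sm ring subunit, had 9.93, 19.5, 32.28 and 13.92 TPM in day-1 livers, against 4.05, 2.42, 4.36 and 1.27 TPM before transport. Every day-1 liver was above every earlier one, and the difference was 2.26 (SE 0.488, adjusted p = 0.0015). Its ring partner snrpd1 had 18.08, 38.32, 52.8 and 22.94 TPM at day 1, against 9.38, 11.41, 8.06 and 4.54 TPM before, a difference of 1.81 (SE 0.382, adjusted p = 0.00134). Again the groups were apart, with day-1 liver replicate 3 the highest in both genes. The other Sm genes named by the same rule differed by 1.72 (snrpd3l), 1.49 (snrpb), 1.38 (snrpd2) and 1.34 (snrpe). Snrpe moved most with a single library, to 0.86 (adjusted p = 0.033) without liver replicate 4 before transport.

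Outside the Sm ring, lsm7 of the Lsm ring had 8.66, 13.91, 25.43 and 9.41 TPM at day 1, against 5.33, 4.5, 5.1 and 2.94 TPM before transport, a difference of 1.39 (SE 0.329, adjusted p = 0.0031). Sf3a3, an SF3A subunit of the U2 particle, had 8.33, 10, 11.94 and 7.56 TPM at day 1, against 2.85, 2.56, 4.2 and 4.47 TPM before, a difference of 1.22 (SE 0.237, adjusted p = 0.000673). Neither gene's groups overlapped.

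Among the hnRNP genes, hnrnpaba, an A/B-type hnRNP, rose and hnrnpa3 fell. Hnrnpaba had 36.84, 52.9, 37.42 and 35.37 TPM at day 1, against 10.5, 10.48, 14.11 and 17.95 TPM before transport, a difference of 1.56 (SE 0.292, adjusted p = 0.000482). Hnrnpa3, an A-type hnRNP close to hnRNP A1, had 12.06, 11.6, 3.09 and 12.22 TPM at day 1, against 18.9, 17.6, 38.69 and 40.56 TPM before, a difference of -1.53 (SE 0.298, adjusted p = 0.000685). Both pairs of groups were apart. Hnrnpm rose by 1.31, and hnrnpl (-0.55, adjusted p = 0.0339, not called after rescaling) and hnrnpul1 (-1.08, adjusted p = 0.0105) fell. The hnrnpul1 call was lost without either of the livers that stood apart.

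The day-1 liver counts rest on the spread estimated from all 34 livers. Fitted with the 8 libraries alone, 2 members were higher and none lower, and no share of all genes is given for that fit. Without both livers that stood apart, 19 were higher and 2 lower. Among markers of other cells, stromal and endothelial genes had 1 higher and 5 lower of 14 (median -0.75), proliferation genes 0 higher and 6 lower of 17, and hepatocyte genes 1 higher and 3 lower of 18. Erythrocyte genes had 1 higher and 1 lower of 10, myeloid genes 1 higher of 9, thrombocyte genes 1 lower of 6 and lymphocyte genes none of 5. Their part in the rises was not tested.

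Normal livers of days 3 to 5 also had more members above than below the level before transport. Averaged over the 3 days with equal weight, 29 members were higher and 10 lower than before transport, where 16.9% of all genes were higher and 34.7% lower (51.6% in either direction). The members' median was 0.34, that of all genes -0.24. Rescaled, 43 members were higher and 9 lower, against 28.1% and 28.6% of all genes. All 10 snrp genes were higher (median 1.34), as were 7 of 12 lsm genes (median 0.90, with 2 lower), or 10 of 10 and 9 of 12 after rescaling. Liver snrpf ranged from 13.67 TPM to 93.34 TPM in the 11 normal fish with a median of 36.76 TPM, all above the 1.27 to 4.36 TPM before transport, a difference of 3.16 (SE 0.404, adjusted p = 2.61e-07).

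Prpf19, the ubiquitin ligase at the core of the Prp19 complex, had a lowest value of 4.88, a median of 10.54 and a highest value of 21.85 TPM in normal livers, against 1.73, 2.07, 2.76 and 3.87 TPM before transport. The difference was 1.66 (SE 0.265, adjusted p = 8.48e-06). Lsm8, the subunit that makes the Lsm ring nuclear, ranged over 9.22, 18.81 and 24.13 TPM (lowest, median, highest) in normal livers, against 6.03, 5.89, 6.24 and 3.03 TPM before, a difference of 1.53 (SE 0.277, adjusted p = 4.33e-05). Normal livers were above all earlier ones in both genes. Further rises were 1.82 in lsm6, 1.69 in snrpd1, 1.58 in lsm7 and 1.57 in snrpd3l. Snrpe rose by 1.38 (0.91 without liver replicate 4 before transport), snrpg by 1.34 and snrpc, which encodes a protein of U1, by 1.33.

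Among the members that fell in normal livers was prpf38a, a protein of the spliceosome before activation. It ranged over 4.87, 7.59 and 10.41 TPM in normal livers, against 16.19, 15.65, 19.49 and 18.12 TPM before transport, with no overlap and a difference of -1.13 (SE 0.193, adjusted p = 2.12e-05). Sf3b1, the branch-site subunit, ranged over 40.84, 52.28 and 92.28 TPM in normal livers, against 75.72, 89.26, 111.09 and 304.79 TPM before. The last value belongs to the liver that stood apart, and without it the difference of -1.17 (adjusted p = 0.000154) was -0.74. That library likewise moved lsm14aa, which read -1.26 with it and -0.81 without it, hnrnpul1 (-1.07 and -0.62), hnrnpd (-0.79 and -0.50) and prpf38b (-0.77 and -0.50). Hnrnpl fell by 0.69, and the call of prpf4 (-0.54), a tri-snRNP protein, was lost without that library and after rescaling. Of 18 hepatocyte markers 4 were higher and 11 lower in normal livers than before transport, of 14 stromal and endothelial markers 1 was higher and 10 lower (median -1.07), of 10 erythrocyte markers 6 were lower, and of 17 proliferation markers 7 were lower. Of 9 myeloid markers 3 were higher and 1 lower, of 6 thrombocyte markers 3 were lower and of 5 lymphocyte markers 2 were lower. Their part in these results was not tested.

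Abnormal livers had 7 members higher and 4 lower than before transport, where 2.62% of all genes were higher and 6.66% lower (9.28% in either direction), and after rescaling 18 were higher and 4 lower, where 7.03% of all genes were higher and 8.67% lower. The highest was snrpa1, which encodes a protein of U2, at 1.26 (SE 0.224, adjusted p = 0.000649), followed by snrpf at 1.25 (adjusted p = 0.0473), snrpg at 1.01 and snrpd3l at 0.91. Lsm5 (0.86), srsf5b (0.61) and sf3b6 (0.50) were also higher. Lower were srsf3a (-1.86), hnrnpl (-0.63) and, at low levels and named after their values were seen, srsf10a (-0.82) and lsm14b (-1.01). Without liver replicate 4 before transport the counts were 3 higher and 1 lower, and srsf3a read -0.99 (adjusted p = 0.342). Without replicate 3 they were 6 higher and 1 lower, and in a fit of the compared libraries alone 1 higher and 1 lower. No share of all genes is given for these fits. Of 14 stromal and endothelial markers 6 were lower in these livers, and of 17 proliferation markers 5, and their part was not tested.

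**Figure D2:**
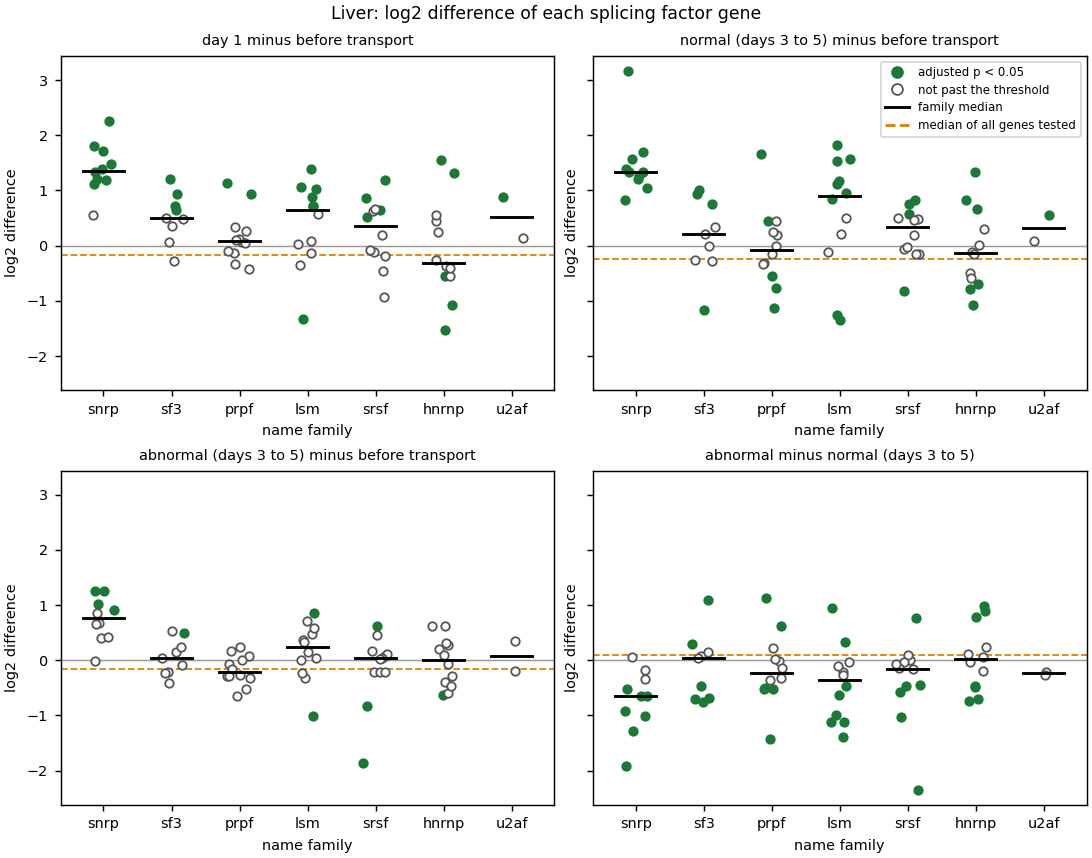
Log2 difference of each splicing gene in liver, by name family, in 4 panels: day 1 minus before transport, normal minus before transport, abnormal minus before transport, and abnormal minus normal. Filled points have an adjusted p under 0.05, black bars are family medians and the dashed line is the median of all genes. The snrp medians are 1.36, 1.34, 0.77 and -0.65.

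Set directly against normal fish of the same days, abnormal livers had lower levels of 30 members and higher levels of 10, where 21.3% of all genes were lower and 29.1% higher (50.4% in either direction). The members' median was -0.26, that of all genes 0.09. Rescaled, 38 were lower and 8 higher, against 29.6% and 29.9% of all genes, and 30 and 8 were called under both scalings. Leaving out any 1 library left between 37 and 41 members called. All 30 lower members and all 10 higher ones had that sign on each of the 3 days. They were called on the mean of those days, so the shared sign is no separate support. For no member did the difference between abnormal and normal livers change with day at an adjusted p under 0.05. Over all genes that limma test called 0 in liver, and no member had an unadjusted p under 0.05, against 1.88% of all genes.

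In this comparison 7 of 10 snrp genes were lower (median -0.65), 6 of 12 lsm genes (with 2 higher), 5 of 12 srsf genes (1 higher), 4 of 12 prpf genes (2 higher), 4 of 9 sf3a and sf3b genes (2 higher) and 4 of 12 hnrnp genes (3 higher). After rescaling the lower counts were 7 snrp, 8 lsm, 6 srsf, 7 prpf, 4 sf3a or sf3b and 5 hnrnp genes. Liver snrpf was again the snrp gene with the largest difference, with 2.33, 9.56 and 16.05 TPM (lowest, median, highest) in abnormal fish, against 13.67, 36.76 and 93.34 TPM in normal fish. These overlap at 1 edge, and the difference was -1.91 (SE 0.297, adjusted p = 4.14e-06). Snrpa, which encodes a protein of U1, had 1.17, 3.44 and 5.37 TPM in abnormal fish, against 3.28, 9.34 and 17.24 TPM in normal fish, a difference of -1.27 (adjusted p = 8.78e-06), beside 3.5, 2.52, 2.93 and 2.94 TPM before transport. Snrpe was lower by the least of the snrp genes named (-0.52, adjusted p = 0.0395). Prpf39, the prpf gene with the highest mean TPM in liver, differed by -0.51 (adjusted p = 0.0201).

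Prpf19 had 1.97, 3.0 and 4.99 TPM in abnormal livers, against 4.88, 10.54 and 21.85 TPM in normal livers, a difference of -1.42 (adjusted p = 5.45e-07). Lsm8 had 3.44, 5.61 and 11.49 TPM, against 9.22, 18.81 and 24.13 TPM in normal livers, a difference of -1.38 (adjusted p = 1.72e-06). The groups overlap slightly in both genes, and the abnormal medians lie within the range before transport. Lsm1, the subunit that takes the place of Lsm8 in the cytoplasmic decay ring, was lower as well, with 2.07, 2.96 and 4.32 TPM in abnormal livers, against 4.62, 7.78 and 10.48 TPM in normal livers, a difference of -1.12 (adjusted p = 1.87e-07). These 2 groups did not overlap. Lsm6, common to both rings, differed by -1.12, lsm7 by -0.99 and snrpd1 by -1.02.

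The 10 members that were higher in abnormal livers came from several families. Prpf38a had 8.25, 17.8 and 23.88 TPM (lowest, median, highest) in abnormal livers, against 4.87, 7.59 and 10.41 TPM in normal livers, a difference of 1.13 (SE 0.142, adjusted p = 1.12e-07). Sf3b1 had 73.73, 122.3 and 144.61 TPM in abnormal livers, against 40.84, 52.28 and 92.28 TPM in normal livers, a difference of 1.09 (SE 0.173, adjusted p = 5.86e-06). Hnrnpd had 7.42, 10.87 and 15.42 TPM in abnormal livers, against 3.32, 4.53 and 7.06 TPM in normal livers, a difference of 0.99 (SE 0.158, adjusted p = 6.16e-06). The groups of 11 overlapped in prpf38a and sf3b1 and were apart in hnrnpd.

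Hnrnph3, a relative of hnrnph1, was higher by 0.90 (adjusted p = 0.000769), with 10.78, 22.63 and 36.56 TPM in abnormal livers, against 9.02, 10.73 and 13.61 TPM in normal livers. Hnrnpul1 was higher by 0.79 (adjusted p = 0.000784), with 12.25, 18.32 and 23.74 TPM in abnormal livers, against 8.19, 9.44 and 11.82 TPM in normal livers, without overlap. Lsm14aa, at 0.94, and srsf5b, an SR protein gene at 0.77 (adjusted p = 9.23e-06), belong here too, as does prpf38b at 0.61. Sf3b6 (0.29) and lsm14b (0.33), also past the threshold, were not called after rescaling.

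Every abnormal liver lay below every normal one in 3 members, lsm1, lsm6 and srsf9, which held for 4.09% of all genes, and above in 2, hnrnpd and hnrnpul1, which held for 9.33%. Srsf9, an SR protein gene, had 4.79, 7.67 and 9.03 TPM in abnormal livers, against 9.15, 15.96 and 21.2 TPM in normal livers, a difference of -1.03 (adjusted p = 2.22e-06). Several abundant members missed the threshold between abnormal and normal livers. Hnrnpa1b ranged over 81.61, 99.55 and 143.61 TPM in abnormal livers, against 81.30, 111.94 and 147.62 TPM in normal livers, a difference of -0.02 (adjusted p = 0.882). Lsm12b differed by -0.03, srsf5a by -0.07, u2af1 by -0.21 and u2af2a, the large U2AF subunit, by -0.27 (adjusted p = 0.118). Over the 5 liver comparisons 16 members were called in none. Among them were prpf8, the scaffold of the catalytic centre, prpf6, sf3a1, sf3a2, srsf1a, srsf1b and hnrnpa1b. The share of all genes called in none is not given here, so this count does not set the members apart from other genes.

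Markers of other cells differed between these livers. Erythrocyte markers were higher in abnormal livers for 8 of 10 and lower for none, with summed levels of 220, 309 and 230 TPM in abnormal fish on days 3, 4 and 5, against 54.5, 42.9 and 50.8 TPM in normal fish. Of 18 hepatocyte markers 12 were higher and 5 lower, of 6 thrombocyte markers 5 were higher, and of 17 proliferation markers 1 was higher and 6 were lower. Of 5 lymphocyte markers 3 were higher, and of 9 myeloid markers 1 was higher and 3 were lower. Stromal and endothelial markers had 5 higher and 3 lower of 14. Their part in the differences of the splicing genes was not tested.

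Of all members, srsf3a had the largest difference between abnormal and normal fish in both tissues. It is 1 of 2 genes in the fish for SRSF3, a small SR protein that in mammals controls the splicing of its own transcript. Its level in abnormal livers was 1.02, 5.66 and 17.37 TPM (lowest, median, highest), against 11.9, 28.37 and 61.56 TPM in normal livers, a difference of -2.34 (SE 0.417, adjusted p = 2.85e-05) that lay between -2.63 and -2.12 under the alternatives tried. By day the liver difference was -2.62, -2.39 and -2.01 on days 3, 4 and 5. The 4 livers before transport had 4.57, 14.84, 18.38 and 132.67 TPM. The last value belongs to the liver that stood apart and lies above every normal liver. The others lay within or just above the range of abnormal livers, the higher of them also within that of normal livers.

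The spleen showed the same direction with fully separate groups. Srsf3a had 3.93, 10.03 and 25.69 TPM in abnormal spleens, against 57.36, 86.08 and 159.34 TPM in normal spleens, a difference of -3.03 (SE 0.304, adjusted p = 1.52e-09). After rescaling it was -2.41, and it lay between -3.17 and -2.33 under all alternatives. By day it was -3.28, -2.91 and -2.91. The 4 spleens before transport had 18.96, 22.67, 26.18 and 26.28 TPM, below all normal spleens and at the upper end of the abnormal ones. Normal spleens were higher than these by 1.94 (SE 0.413, adjusted p = 0.000598), and abnormal spleens differed from them by -1.10 (adjusted p = 0.0449), a call that was lost after rescaling (-0.70, adjusted p = 0.17). The day-1 spleens fell into separate levels, with 28.74, 15.52, 111.7 and 103.18 TPM.

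Its paralogue srsf3b moved far less. Srsf3b had 14.07, 19.25 and 22.64 TPM in abnormal livers, against 15.36, 29.05 and 54.89 TPM in normal livers, a difference of -0.58. In spleen the difference was -0.38 (adjusted p = 0.0146), which became 0.28 after rescaling. The table gives 1 value per gene, so splice forms of srsf3a were not seen, and the quantifier divides reads that fit both paralogues.

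**Figure D3:**
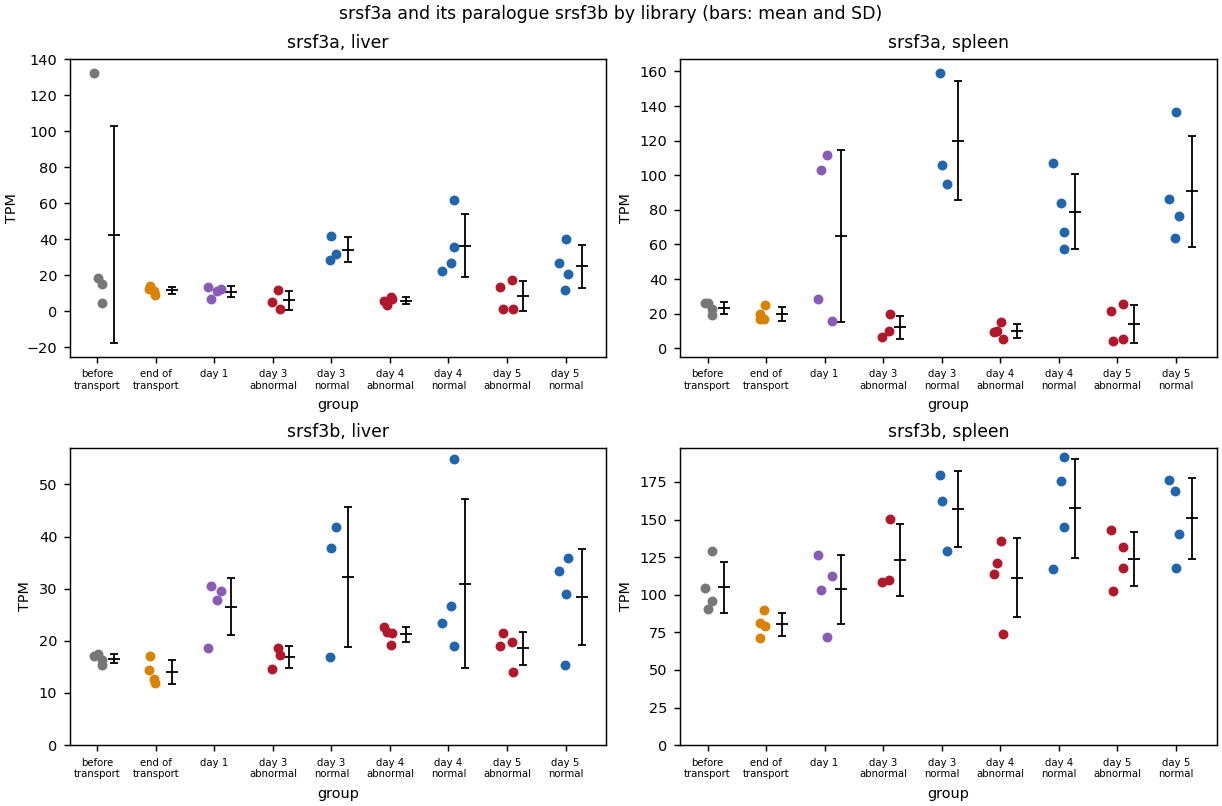
TPM of srsf3a and srsf3b in each library by group, for liver and spleen, with the group mean and SD. Every abnormal spleen lies below every normal spleen in srsf3a (highest 25.69 against lowest 57.36 TPM), and 1 liver before transport reaches 132.67 TPM.

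Splicing genes stood lower in the spleen at the end of transport. Of 70 members 15 were lower and 3 higher than before transport, where 6.98% of all genes were lower and 5.23% higher (12.2% in either direction). The members' median was -0.48, that of all genes -0.10. Rescaled, 25 were lower and 6 higher, against 14% and 12.2% of all genes, and all 15 and all 3 kept their calls. In 41 members every spleen at the end of transport lay below every spleen before it, which held for 22.6% of all genes, and in 6 above, which held for 12.3%. The fit of these 8 spleens alone called 37 lower and 6 higher, but no share of all genes is given for that fit. The shares above belong to the fit of all groups and cannot be set beside these calls. The counts were 9 lower and none higher without spleen replicate 2 of the end of transport, and 10 lower and 1 higher without spleen replicate 1, or 4, of the group before transport.

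Hnrnph1 had 13.19, 12.68, 16.29 and 18.6 TPM at the end of transport, against 41.49, 35.76, 42.36 and 44.47 TPM before, a difference of -1.39 (SE 0.22, adjusted p = 0.000115). Sf3b2, an SF3B subunit, had 5.67, 5.48, 5.88 and 6.91 TPM, against 20.43, 15.45, 15.77 and 20.05 TPM before, a difference of -1.43 (SE 0.334, adjusted p = 0.00498). Hnrnpub, an hnRNP of the U type that binds chromatin, had 17.44, 16.27, 19.62 and 18.67 TPM, against 41.75, 40.57, 40.78 and 47.88 TPM before, a difference of -1.20 (adjusted p = 0.0115). In all 3 genes the groups were narrow and well apart.

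The Sm gene snrpb had 59.47, 57.19, 43.35 and 52.04 TPM at the end of transport, against 136.07, 120.1, 115.08 and 97.36 TPM before, also without overlap (difference -1.13, SE 0.274, adjusted p = 0.00662). Lsm7 (-1.20), hnrnpaba (-1.16), prpf19 (-1.12), snrpa (-1.06), snrpd1 (-1.03) and hnrnpd (-1.02) fell as well. The 3 members that rose were srsf5a, an SR protein gene, with 97.06, 92.48, 99.87 and 78.22 TPM at the end of transport, against 64.03, 49.06, 49.67 and 49.88 TPM before (0.78, adjusted p = 0.0487), lsm14b (0.86, adjusted p = 0.046) and lsm10 (0.86, adjusted p = 0.0185). Lsm14b had 13.25, 11.15, 7.42 and 8.9 TPM, against 7.38, 3.93, 4.35 and 4.96 TPM before, opposite in sign to the liver. Hepatocyte markers summed to 4434 ± 2765 TPM in these spleens (SD, n = 4), against 561 TPM before transport, with 13 of 17 higher, and 6 of 18 proliferation markers were lower, and the part of both in the falls was not tested.

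At day 1 the spleen had 12 members lower and none higher than before transport, where 15.9% of all genes were lower and 4.17% higher (20.1% in either direction). The members' median was -0.26, close to the -0.23 of all genes, and rescaling gave 10 lower and 15 higher, where 18% of all genes were lower and 16.3% higher, so the direction of these counts rests on the scale. The day-1 spleens were far apart in snrpe, which had 145.83, 111.76, 17.65 and 25.65 TPM at day 1, against 142.44, 125.35, 114.58 and 144.98 TPM before. Its difference was -1.30 (adjusted p = 0.0235). Between 2 and 20 members were called when 1 day-1 spleen was left out, the lowest without replicate 3 and the highest without replicate 4. Without spleen replicate 1, or 4, of the group before transport 6 were called, and without day-1 replicates 3 and 4 together 7. In a fit of the 8 spleens alone 1 was called. No share of all genes is given for these fits. Of 10 erythrocyte markers 9 were higher in day-1 spleens (median 2.15), of 18 proliferation markers 6 were lower, of 15 stromal and endothelial markers 5 were lower, and of 9 myeloid markers 3 were higher and 1 lower. Of 62 ribosomal protein genes, a group chosen after seeing the data, 56 were lower at day 1 in spleen as deposited (median -1.87). The part of these genes in the result was not tested.

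Hnrnpa3 and lsm14b were lower at day 1 in both tissues. In spleen, hnrnpa3 had 33.44, 30.71, 11.55 and 53.58 TPM at day 1, against 71.05, 65.75, 72.94 and 66.76 TPM before transport, a difference of -1.25 (adjusted p = 0.00227). Lsm14b had 1.15, 1.55, 0.45 and 2.04 TPM, against 7.38, 3.93, 4.35 and 4.96 TPM before, a difference of -1.44 (SE 0.288, adjusted p = 0.0011). No day-1 spleen reached an earlier one in either gene. Lsm5 (-1.40), lsm6 (-1.25), snrpg (-1.20), srsf7a (-0.92), hnrnph3 (-0.87), srsf1a (-0.86) and hnrnpa1b (-0.73) also passed the threshold. Of the genes named here, snrpe, snrpg and lsm6 lost their calls after rescaling, and lsm5, srsf7a, hnrnph3, srsf1a, hnrnpa1b, hnrnpa3 and lsm14b did not. Of those that kept their call, lsm5, hnrnph3 and srsf1a had day-1 spleens that overlapped the spleens before transport. Lsm5 ranged from 5.99 to 72.45 TPM at day 1, against 63.95 to 76.23 TPM before.

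Normal spleens of days 3 to 5 had 22 members higher and 1 lower than before transport, where 21.5% of all genes were higher and 10.6% lower (32.1% in either direction). The members' median was 0.39, that of all genes 0.20. After rescaling 16 were higher and 10 lower, against 20% and 20.6% of all genes, and 14 of the 22 kept their call. The snrp family had 7 of 10 higher and a median of 0.75, and 3 of 10 after rescaling. The lsm family had 6 of 13 higher and a median of 0.58, and 4 of 13 after rescaling. In spleen, snrpf had 78.43, 123.57 and 159.11 TPM in normal fish, against 56.31, 49.13, 43.56 and 61.39 TPM before transport, a difference of 1.14 (adjusted p = 0.00611). Every normal spleen was above every earlier one.

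Srsf5a (1.08, adjusted p = 0.00033), lsm7 (1.01), lsm3 (0.95, adjusted p = 3.08e-05), lsm10 (0.90), snrpc (0.88), lsm6 (0.86), snrpd2 (0.85) and snrpd3l (0.85) were also higher, of which lsm6 and snrpd3l were not called after rescaling. Hnrnpd was the 1 lower member, with 24.97, 27.84 and 34.68 TPM in normal spleens, against 55.97, 48.14, 59.72 and 61.36 TPM before, a difference of -0.95 (SE 0.231, adjusted p = 0.00213). The count of members called was 11 without spleen replicate 3 of the group before transport and 15 without replicate 2. The fit of the compared spleens alone had 46 higher and 5 lower. The shares of all genes above do not belong to that fit, so its counts cannot be set against them. Of 9 myeloid markers 8 were higher in normal spleens than before transport (median 1.79), of 6 thrombocyte markers 1 was higher and 5 lower (median -1.41), of 18 proliferation markers 4 were higher, and of 15 stromal and endothelial markers 5 were higher and 6 lower. Their part in the result was not tested.

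Abnormal spleens had 5 members lower and none higher than before transport, where 25.2% of all genes were lower and 3.41% higher (28.6% in either direction). Beside srsf3a these were lsm14b (-1.15, adjusted p = 0.000711), srsf2a (-0.55), hnrnpk (-0.53) and hnrnph1 (-0.51). Rescaled, 1 was lower and 14 higher, where 18.9% of all genes were lower and 14.6% higher, and lsm14b alone kept its call (-0.87). Leaving out spleen replicate 1, 3 or 4 of the group before transport left 1 member lower, and replicate 2 left 2. Among abnormal spleens the count was 2 without replicate 2 of day 3 or replicate 1 or 2 of day 5, 3 without replicate 2 of day 4, 14 without replicate 3 of day 4 and 10 without replicate 4 of day 4. Of 15 stromal and endothelial markers 13 were lower in abnormal spleens than before transport (median -1.39), of 10 erythrocyte markers 7 were higher, and of 18 proliferation markers 10 were lower. Their part in the result was not tested.

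**Figure D4:**
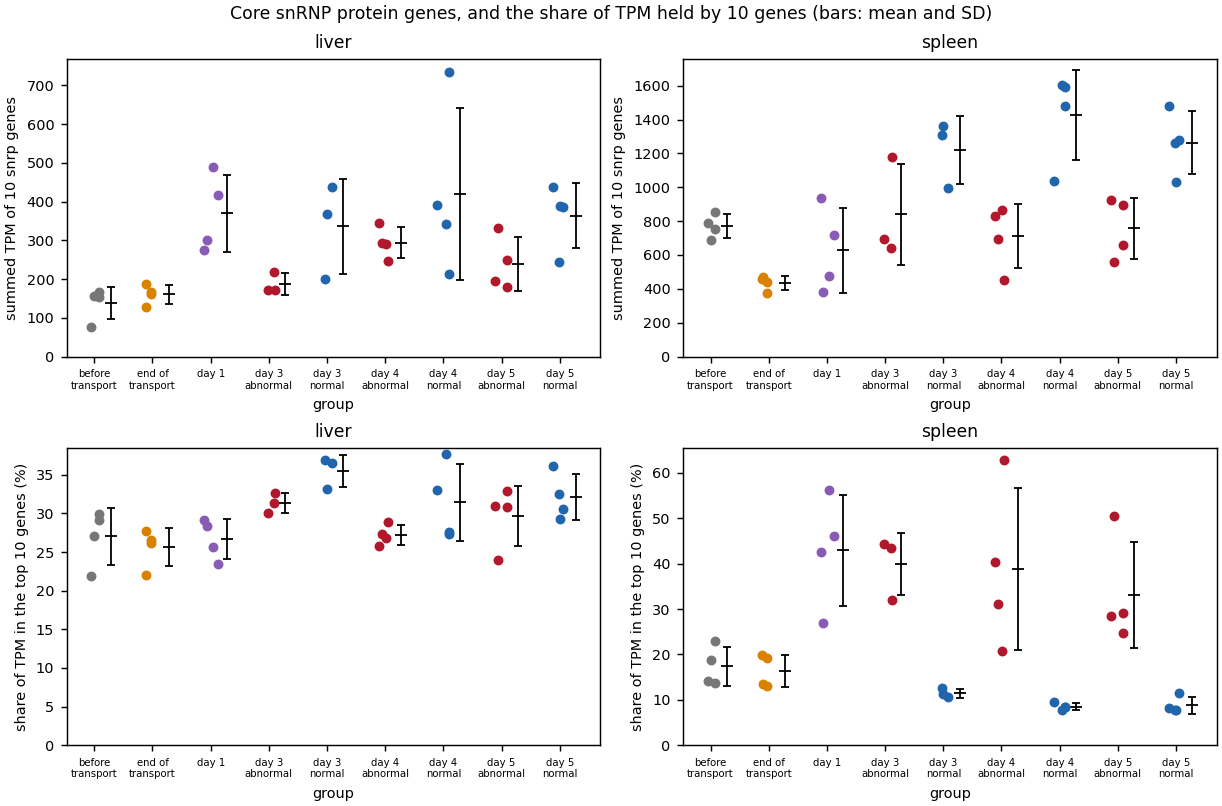
Summed TPM of the 10 snrp genes in each library, and the percent of TPM in the 10 most abundant genes, by group in liver and spleen. In liver the summed level averages 370 TPM at day 1 and 138 TPM before transport, and in spleen the abnormal fish have the lower sums and the higher share in a few genes than normal fish of the same day. Sums are as deposited, without rescaling.

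The summed level of the 10 snrp genes shows this course in single figures. In liver it reached 161 ± 24.3 TPM when transport ended and 370 ± 99.4 TPM at day 1, against 138 ± 42.4 TPM before transport (SD, n = 4 each). On days 3, 4 and 5 it was 187 ± 27.4, 294 ± 40.3 and 239 ± 69.2 TPM in abnormal livers, against 336 ± 122, 420 ± 222 and 364 ± 83.5 TPM in normal livers (SD, n = 3 at day 3 and 4 later). In spleen it was 436 ± 41.8 TPM when transport ended and 628 ± 252 TPM at day 1, against 771 ± 69.0 TPM before transport (SD, n = 4 each). On days 3, 4 and 5 it was 839 ± 297, 711 ± 187 and 758 ± 179 TPM in abnormal spleens, against 1221 ± 199, 1427 ± 264 and 1264 ± 184 TPM in normal spleens. As deposited, abnormal spleens thus stood near the level before transport and normal spleens above it. These sums were not rescaled. Fewer snrp genes were called after rescaling, both for normal spleens against before transport and for abnormal against normal spleens. The order of the spleen levels therefore rests in part on the scale.

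Between abnormal and normal spleens 53 of 70 members were lower and 1 higher, where 54.2% of all genes were lower and 7.75% higher (61.9% in either direction). The members' median of -0.59 was near the -0.51 of all genes. After rescaling 11 were lower and 16 higher, where 28.4% of all genes were lower and 27.7% higher, and 21 of the 53 changed sign. The snrp family had all 10 genes lower as deposited and 1 of 10 lower after rescaling, and the hnrnp family had 7 lower and 1 higher as deposited, against 2 lower and 6 higher after it. The number of lower members therefore rests on the scale. In 14 members every abnormal spleen lay below every normal one, which held for 19.8% of all genes, and in none above, which held for 1.63%. All 53 had the same sign on each day, but they were called on the mean of those days, so this is no separate support. For none did the difference between abnormal and normal spleens change with day by limma, where 0.0167% of all genes were called. In that test no member had an unadjusted p under 0.05, against 1.41% of all genes.

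The genes lower under both scalings, 11 in all, included srsf3a, lsm7, hnrnpc, sf3b2, snrpa, prpf19, lsm10, sf3b3, hnrnpk and u2af2a, of which sf3b3 and hnrnpk were named here after their values were seen. Hnrnpc, an hnRNP that binds uridine tracts and guards against aberrant exons, had 9.59, 16.56 and 23.48 TPM in abnormal spleens, against 38.99, 44.97 and 48.44 TPM in normal spleens, a difference of -1.32 (SE 0.16, adjusted p = 4.49e-08) and of -0.68 after rescaling. It had 26.41, 20.93, 24.38 and 26.36 TPM before transport, below all normal spleens and overlapping the upper end of the abnormal ones. Lsm7 had 7.33, 20.86 and 43.14 TPM in abnormal spleens, against 41.43, 61.12 and 85.66 TPM in normal spleens, a difference of -1.44 (adjusted p = 4.45e-07), or -0.80 rescaled. The groups touch in lsm7 and are apart in hnrnpc.

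Sf3b2 had 4.23, 11.62 and 16.28 TPM in abnormal spleens, against 21.04, 26.44 and 31.31 TPM in normal spleens, a difference of -1.17, or -0.55 rescaled. U2af2a had 23.29, 47.52 and 67.0 TPM in abnormal spleens, against 78.4, 91.35 and 103.81 TPM in normal spleens (-0.91, or -0.26 rescaled). Neither gene had overlapping groups. Lsm10 was at -0.41 after rescaling. Snrpa differed by -1.09 (-0.46 rescaled), prpf19 by -1.01 (-0.37), sf3b3 by -0.94 (-0.32) and hnrnpk by -0.93 (-0.28).

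Hnrnpd was the 1 member higher in abnormal spleens, with 21.07, 46.01 and 57.78 TPM, against 24.97, 27.84 and 34.68 TPM in normal spleens. The difference was 0.54 (SE 0.17, adjusted p = 0.00692), or 1.18 after rescaling. Hnrnpd was thus higher in abnormal than in normal fish in both tissues. Against fish before transport it missed the threshold in abnormal spleens (-0.41, adjusted p = 0.187) and in abnormal livers (0.20, adjusted p = 0.571, but 0.40 and 0.0465 after rescaling).

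Markers of other cells differed between these spleens too. Erythrocyte markers summed to 1415, 1198 and 1285 TPM in abnormal spleens on days 3, 4 and 5, against 489, 165 and 223 TPM in normal spleens, with 8 of 10 higher and 1 lower. Proliferation markers summed to 160, 130 and 143 TPM, against 398, 459 and 423 TPM in normal spleens, with 17 of 18 lower. All 9 myeloid markers were lower, of 6 thrombocyte markers 4 were higher and 1 lower, of 15 stromal and endothelial markers 5 were higher and 9 lower, and of 7 lymphocyte markers 2 were higher and 3 lower, or 3 and none after rescaling. Their part in the splicing genes' differences was not tested.

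**Figure D5:**
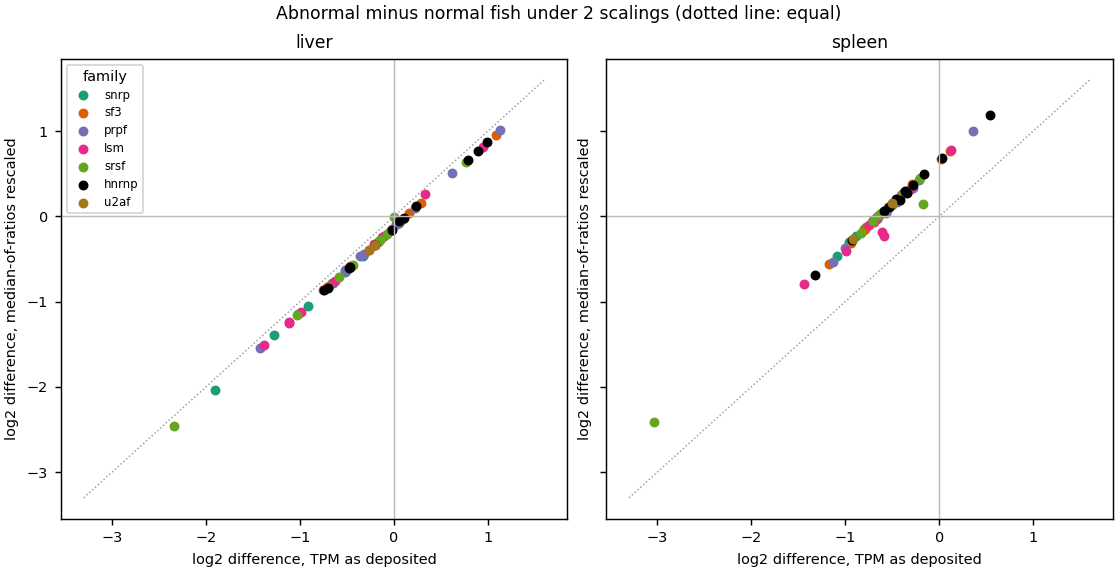
Log2 difference between abnormal and normal fish for each splicing gene as deposited (horizontal axis) and after median-of-ratios rescaling (vertical axis), in liver and spleen. In liver no called gene changes sign, and in spleen 21 of the 53 lower genes do.

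The tissues were compared directly in a fit of all 68 libraries, as the change in spleen minus the change in liver. For day 1 against before transport 23 members had a lower change in spleen and none a higher one, where 11% of all genes were lower and 6.49% higher (17.5% in either direction). Rescaled, 31 were lower and 2 higher, against 16.2% and 13.5% of all genes, and all 23 kept their call. The snrp family led with 7 of 10 and a median of -2.15. Snrpf differed between the tissues by -2.79 (adjusted p = 0.00151), snrpe by -2.64 (adjusted p = 0.000632), snrpd1 by -2.50 (adjusted p = 0.000658), lsm5 by -2.46 (adjusted p = 0.000815) and snrpg by -2.31 (adjusted p = 0.00149). A fit of the compared libraries alone called 1, and no share of all genes is given for that fit. The spleens of day 1 differed widely, with snrpe between 17.65 and 145.83 TPM. Without day-1 spleens 3 and 4, 9 of the 15 named day-1 values in spleen and in the tissue difference lost their call, and 1 turned sign.

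At the end of transport 3 members had a lower change in spleen and 1 a higher one, where 2.06% of all genes were lower and 4.43% higher (6.48% in either direction). These were hnrnph1 (-1.61), snrpb (-1.43) and srsf2b (-0.98), and lsm14b (1.74, adjusted p = 0.00065). Rescaling raised the lower count to 15 and left 1 higher, where 6.69% of all genes were lower and 6.26% higher. The lower count was 1 without any one of spleen replicates 1, 2 and 3 before transport, liver replicates 1 and 2 of the end of transport, or spleen replicates 2, 3 and 4 of the end of transport.

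For abnormal against normal fish 27 members had a lower difference in spleen than in liver and 2 a higher one, where 47.4% of all genes were lower and 6.74% higher (54.2% in either direction). Rescaled, 5 were lower and 25 higher, against 28% and 21.2% of all genes. The 5 members lower under both scalings were prpf38a (-1.79, adjusted p = 9.9e-13), srsf5b (-1.39, adjusted p = 1.26e-07), hnrnph3 (-1.24, adjusted p = 0.000111) and, completing the count, lsm14b (-0.94) and prpf38b (-0.83). Each of these was higher in abnormal than in normal livers. The 2 that were higher were snrpf (0.95, adjusted p = 0.0333), whose difference between abnormal and normal fish was larger in liver, and sf3b5 (0.71, adjusted p = 0.015), an SF3B subunit.

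The list of 52 other spliceosome genes had 8 higher and 3 lower at day 1 in liver, and 13 higher and 11 lower in normal livers, against fish before transport. After rescaling these counts were 23 and 4 at day 1, and 24 and 5 in normal fish. The shares of all genes given above for these comparisons apply here too. Between abnormal and normal livers 13 were higher and 14 lower, or 12 and 21 after rescaling, beside 29.1% and 21.3% of all genes as deposited and 29.9% and 29.6% after rescaling. Named by the smallest p, txnl4a, a protein of the U5 particle, averaged 16.5 TPM in day-1 livers, against 5.97 TPM before transport (1.20, adjusted p = 0.00388), and 7.51 TPM in abnormal livers, against 17.5 TPM in normal livers (-1.14, adjusted p = 4.42e-06). In spleen the list had 35 lower and none higher between abnormal and normal fish, and 6 lower and 17 higher after rescaling. Of all genes 54.2% were lower and 7.75% higher as deposited, and 28.4% and 27.7% after rescaling. The direction of this spleen count thus rests on the scale.

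The kinases that phosphorylate SR proteins moved in the liver as well. Of 6 tested, 3 were lower at day 1 and 5 in normal livers than before transport, with none higher, and 5 were higher and none lower in abnormal than in normal livers (median 0.61). Of all genes, 9.99% were higher and 17.3% lower at day 1, and 16.9% and 34.7% in normal livers. Between abnormal and normal livers 29.1% of all genes were higher and 21.3% lower. After rescaling the counts were 1 higher and 4 lower at day 1, 5 lower in normal livers and 5 higher between abnormal and normal livers. The rescaled shares of all genes were 17.7% higher and 18.3% lower at day 1, and 28.1% and 28.6% in normal livers. Between abnormal and normal livers they were 29.9% and 29.6%. Clk4a averaged 26.4 TPM in abnormal livers, against 11.7 TPM in normal livers, a difference of 1.09 (SE 0.132, adjusted p = 6.02e-08). It averaged 19.5 TPM in day-1 livers and 36.2 TPM before transport (-0.80, adjusted p = 0.00826). Clk2a averaged 10.6 TPM in abnormal livers, against 6.4 TPM in normal livers (0.65, adjusted p = 0.00156). In spleen clk4a was lower than before transport at day 1 (-1.53), in normal fish (-1.45) and in abnormal fish (-1.05), and missed the threshold between abnormal and normal fish (0.40, adjusted p = 0.0507). Between abnormal and normal spleens the list of 7 kinases had none higher and 1 lower as deposited, and 6 higher and none lower after rescaling. Of all genes 7.75% were higher and 54.2% lower as deposited, and 27.7% and 28.4% after rescaling. The direction of the spleen counts thus rests on the scale.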

How the data were processed

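The submitters' processing notes name fastp 0.23.2, a read trimmer, and Salmon 1.10.0, a transcript quantifier. The authors deposited 1 table of TPM values per gene for the 68 libraries, with sums of 995833 to 999254 per library. Which genome build they used is not given in the sources used here. TPM keep no read depth, so the depth behind each value is unknown, and reads shared by paralogues are divided by the quantifier.

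Values were analysed as log2(TPM + 1) in limma 3.58.1 (R 4.3.3), with 9 group means per tissue, empirical Bayes with trend and 25 residual degrees of freedom. A gene was tested where 3 or more libraries of the tissue held 1 TPM or more, which left 15430 genes in liver and 17998 in spleen. Tissue differences came from a fit of 18 groups over 18666 genes. P-values were adjusted by Benjamini-Hochberg over all genes of a fit, at 0.05. Days 3, 4 and 5 weigh equally in the means of abnormal and normal fish. The fit was also run on simulated data. Their noise was independent and of equal spread in all groups, so they do not cover libraries that stand apart or the effect of scale.

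The members, the lists of other splicing genes and of cell markers, and the tests were chosen with earlier results of these data known. Named members were, per comparison, up to 10 with the largest rise and 10 with the largest fall past the threshold and at least 5 TPM in the higher group, up to 5 each way for tissue differences, the most abundant member of each family and that with the smallest p between abnormal and normal fish, and from each splicing list the 2 genes with the smallest p. Alternatives were median-of-ratios and quantile scaling, other pseudocounts and filters, the compared groups alone, a replicate block, and each library left out. Leaving out the 10 most abundant genes or the libraries that stood apart was chosen after seeing the data. Sequences were not used here. The values of 1 member are not reported here, though it is included in the counts.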

Additional observations from a re-analysis of the deposited data

Results flagged for a closer look

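In 7 of the 46 groups of 4 libraries whose values are printed, 1 library lay far from the other 3 by Dixon's test, which chance alone does in about 1 of 20. Among the day-1 livers, hnrnpaba stood at 52.9 TPM in replicate 2 and hnrnpa3 at 3.09 TPM in replicate 3. Liver replicate 4 before transport had 132.67 TPM of srsf3a, 304.79 TPM of sf3b1 and 3.03 TPM of lsm8. Before transport, srsf5a stood at 64.03 TPM in spleen replicate 1 and hnrnpub at 47.88 TPM in spleen replicate 4.

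A change that differed between the tissues by a test of the difference itself was found at the end of transport in lsm14b (1.74, spleen minus liver), hnrnph1 (-1.61), snrpb (-1.43, adjusted p = 0.0374) and srsf2b (-0.98, adjusted p = 0.0461). At day 1 the same test called 23 of 70 members, beside 17.5% of all genes. The largest differences among them were those of snrpf (-2.79), snrpe (-2.64), snrpd1 (-2.50), lsm5 (-2.46) and snrpg (-2.31). Without day-1 spleens 3 and 4, 9 of the 15 named day-1 values in spleen and in the tissue difference lost their call. Between abnormal and normal fish the test of the tissue difference called 29 of 70 members, beside 54.2% of all genes. The 2 with a higher difference in spleen were snrpf (0.95) and sf3b5 (0.71). The largest of the 27 lower ones were prpf38a (-1.79), srsf5b (-1.39), hnrnph3 (-1.24), sf3b1 (-0.98, adjusted p = 0.000538) and hnrnpul1 (-0.95, adjusted p = 0.00225). Of the 7 genes named for this comparison only sf3b1 and hnrnpul1 lost their calls after median-of-ratios rescaling.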

How the results depend on the processing

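The depth is unknown, which limits what low values such as those of lsm11 and srsf10a can show, and groups hold 3 or 4 libraries. Counts of members called are given here, higher and lower together, where they moved by more than 1.5 times, and the causes of these moves were not tested. Shares of all genes called are given only for the fits with every library, as deposited and after median-of-ratios rescaling. For the other settings the counts do not show whether the members moved more than all genes did.

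With median-of-ratios rescaling the counts were 12 for liver at the end of transport, 22 for abnormal livers against fish before transport, 31, 25 and 15 for spleen at the end of transport, at day 1 and in abnormal fish, 27 for abnormal against normal spleens and 16 for the tissue difference at the end of transport. With quantile scaling they were 5, 22, 35, 24, 15, 30 and 19 in the same order. Without the 10 most abundant genes they were 5 for liver at the end of transport, 33, 22 and 12 for spleen at the end of transport, at day 1 and in abnormal fish, 22 for abnormal against normal spleens and 18 for the tissue difference between abnormal and normal fish. In the fit of the compared groups alone they were 0, 2 and 2 for liver at the end of transport, at day 1 and in abnormal fish, 43, 1 and 51 for spleen at the end of transport, at day 1 and in normal fish, and 1 for the tissue difference at day 1. A pseudocount of 0.1 gave 5 for liver at the end of transport. Without both livers that stood apart 21 were called at day 1 and 5 in abnormal livers, and without day-1 spleens 3 and 4 the spleen count at day 1 was 7.

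Leaving out 1 library at a time gave 2 to 8 (liver, end of transport), 23 to 33 (day 1), 38 to 43 (normal), 4 to 12 (abnormal) and 37 to 41 (abnormal against normal), and in spleen 9 to 15, 2 to 20, 11 to 25, 1 to 14 and 51 to 56. Tissue differences gave 2 to 4, 19 to 27 and 23 to 30, the spleen-liver comparison before transport 63 to 65, and the change with day 0 in both tissues.

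Median-of-ratios rescaling turned the sign of 21 of the 53 members lower in abnormal than in normal spleens. It turned 13 of the 27 lower in the tissue difference of that comparison. Before transport it turned 14 of the 63 higher in spleen than in liver. Only named members, called before or after the change, are listed next. Between abnormal and normal spleens those that turned sign were hnrnpa1b (0.30 rescaled, 0.42 with quantile scaling, 0.20 without the 10 most abundant genes), srsf3b (0.28, 0.45 and 0.18), u2af1 (0.16, 0.33 and 0.059), lsm6 (0.018 and 0.17 under the first 2), prpf39 (0.058 and 0.17) and prpf38a (0.042 with quantile scaling). In the tissue difference of the same comparison hnrnpul1 (0.015) and sf3b1 (0.37) turned with quantile scaling, and spleen snrpg at day 1 read 0.043 without day-1 spleens 3 and 4.

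Replicate numbers are shared by the groups, but same-numbered libraries of a tissue did not deviate together (median correlation -0.00399 in liver and -0.0112 in spleen), so they were not taken as pairs. A liver and a spleen of the same group and number correlated more (median 0.203, over 0.1 in 23 of 34 pairs, against -0.0842 for other numbers), but the labels do not say that they are 1 fish, and the fit of both tissues treated them as independent. With a replicate block of group and number in that fit, 3, 23 and 26 members differed between the tissues at the end of transport, at day 1 and between abnormal and normal fish. The fit with a replicate block moved none of 16 counts by more than 1.5 times: it gave 30 for day-1 livers, 39 for abnormal against normal livers, 20 for spleen at the end of transport and 54 for abnormal against normal spleens.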

Other observations

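Of 7 genes of the exon junction complex, which is left on mRNA by splicing, 2 were higher at day 1 and 3 higher and 1 lower in normal livers than before transport, or 2, 4 and 1 after rescaling. Of all genes 9.99% were higher and 17.3% lower at day 1, and 16.9% and 34.7% in normal livers. Rescaled, these shares were 17.7% and 18.3%, and 28.1% and 28.6%. Rbm8a averaged 35.2 TPM at day 1, against 11.9 TPM before transport (1.52, SE 0.223, adjusted p = 4.8e-05), and its partner magoh 52.8 TPM, against 21.3 TPM (1.34, adjusted p = 0.00084). Both encode the core pair of the complex. Eif4a3, the helicase of the same core, was not called at day 1 but was the 1 gene of the 7 that was lower in normal livers. It averaged 35.9 TPM there, against 74.5 TPM before transport (-1.02, adjusted p = 8.19e-06). In abnormal livers it averaged 89.9 TPM, against 35.9 TPM in normal livers (1.26, SE 0.119, adjusted p = 5.52e-10). Of the 7, 1 was higher and 3 were lower in abnormal than in normal livers, with the same counts after rescaling. Of all genes 29.1% were higher and 21.3% lower there, or 29.9% and 29.6% after rescaling.

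The list of 13 genes of snRNP assembly includes some that load the Sm ring onto small nuclear RNA. Of the 13, 1 was higher and 6 were lower in abnormal than in normal livers, or none and 7 after rescaling. Of all genes 29.1% were higher and 21.3% lower as deposited, and 29.9% and 29.6% after rescaling. Gemin6, of the SMN complex, averaged 8.9 TPM in abnormal livers, against 20.8 TPM in normal livers (-1.09, SE 0.174, adjusted p = 6.39e-06). Of 23 splicing regulators outside the families above, 8 were higher and 6 lower, or 8 and 9 after rescaling, beside 29.1% of all genes higher and 21.3% lower as deposited, led by fus (-1.08, adjusted p = 2.83e-08), with 0.889 TPM in abnormal livers and 2.99 TPM in normal livers, and esrp2, a regulator of epithelial splicing, with 4.67 TPM in abnormal livers and 14.2 TPM in normal livers (-1.42, adjusted p = 4.25e-08). Of 10 genes of the minor spliceosome, 2 were higher and 2 lower, or 2 and 5 after rescaling, beside the same shares of all genes. In spleen the minor list had 1 higher and 1 lower between abnormal and normal fish, and 9 higher and none lower after rescaling, so its direction there rests on the scale. Of all genes 7.75% were higher and 54.2% lower in that comparison as deposited, and 27.7% and 28.4% after rescaling.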
